A study of Mus musculus with 9 samples.

Results

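The data on miR-137-3p, miR-139-5p, miR-184-3p, miR-190a-5p and miR-335-3p were examined along the mouse epididymis, 5 of the 358 mature miRNAs measured in the series. They were chosen from their measured values, as miRNAs that were more abundant in distal than in proximal epididymosomes, so their rise from caput to cauda is given as a description with no test. What was asked of them here was where along the duct the rise occurred: already in the corpus, or between the corpus and the cauda.

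Epididymosomes are small extracellular vesicles that the epithelium of the epididymis releases into the lumen, where maturing spermatozoa meet them. They were purified on density gradients from luminal fluid of the caput (the proximal segment), the corpus and the cauda (the distal segment). Sperm are stored in the cauda. The donors were male Swiss mice aged 8 weeks, whose vasculature had been perfused to limit blood. The paper reports that haemoglobin protein was not detected in the preparations by immunoblot. Each of the 9 small RNA libraries, 3 per segment, was made from the pooled RNA of several animals, so the spread between libraries is a spread between pools. Levels are in CPM, the reads of a miRNA as a share of all miRNA reads of its library, scaled to a common total, and differences are on the log2(CPM + 1) scale, which understates those of low miRNAs.

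A miRNA is cut from a hairpin precursor, and one strand of the resulting duplex, from the 5′ (5p) or the 3′ (3p) arm, is loaded into an Argonaute protein, while the partner strand is mostly degraded. The loaded strand finds messenger RNAs mainly through its seed, the short stretch near its 5′ end, and lowers their translation and stability. miRNAs that share a seed can act on overlapping sets of messages, and those from a common precursor or cluster are made together.

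The sequences of the 5 miRNAs are shown because they bear on whether the miRNAs could be read as 1 family. They were taken from RefSeq (GRCm38.p6), run 5′ to 3′, and carry the seed, bases 2 to 8, in capitals.
miR-137-3p: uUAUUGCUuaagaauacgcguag
miR-139-5p: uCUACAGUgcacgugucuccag
miR-184-3p: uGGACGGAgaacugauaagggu
miR-190a-5p: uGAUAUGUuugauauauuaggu
miR-335-3p: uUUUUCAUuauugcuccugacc

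No seed occurred more than once among the 5, and no other of the 299 miRNAs matched to a RefSeq sequence carried one of these seeds. miR-137-3p was 23 bases long and the other members 22. Their GC content ran from 22.7% in miR-190a-5p and 34.8% in miR-137-3p through 36.4% in miR-335-3p to 54.5% in miR-139-5p, with miR-184-3p just below the last of these. The closest seed relative of the group, miR-190b-5p, was not among the 358 miRNAs of the series.

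Over the full sequences, the longest run of bases shared by any pair of the 5 was the 8 bases UUAUUGCU, in miR-137-3p and miR-335-3p. The run began at base 1 of miR-137-3p, and so took in its whole seed, but at base 8 of miR-335-3p, in the middle of that miRNA. It is in capitals in the following lines.
miR-137-3p: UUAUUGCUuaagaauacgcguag
miR-335-3p: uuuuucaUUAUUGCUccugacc

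Among the 299 miRNAs with a sequence, only these 2 (0.669%) held that run. The next longest was UGAUA, 5 bases shared by miR-184-3p and miR-190a-5p, which 8 of the 299 miRNAs (2.68%) carried. GGAG and CCCU, short motifs that have been linked to the sorting of miRNAs into vesicles, were also searched for on the miRNA strand. GGAG lay at base 6 of miR-184-3p, partly within its seed, and was found in 23 of the 299 miRNAs (7.69%). The paper describes such motifs as reported in the 3′ portion, from the middle of the mature sequence to its 3′ end. The GGAG of miR-184-3p lay outside that portion, where 7 of the 299 miRNAs (2.34%) and none of the 5 members held it. CCCU was in none of the 5 members and in 24 of the 299 miRNAs (8.03%), of which 8 (2.68% of the 299) held it in the 3′ portion. A match of letters is a description of the sequence and not of its binding.

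The 5 hairpins lay on 4 chromosomes (GRCm38.p6, GENCODE M21). Mir137 was at chr3:118433857-118433929 on the plus strand, in an exon of the noncoding transcript Gm26871. Mir139 was at chr7:101475376-101475443 on the plus strand, in an intron of Pde2a, which encodes a cyclic nucleotide phosphodiesterase, and of the overlapping model Gm45837. Mir184 was at chr9:89802260-89802328 on the minus strand and in no annotated gene; the nearest was the long noncoding RNA 1700017I07Rik, 542 bases away.

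Mir190a was also on chromosome 9, at chr9:67236660-67236726 on the minus strand, in an intron of Tln2, the gene of the cytoskeletal adaptor talin 2. Mir335 was at chr6:30741299-30741396 on the plus strand, in an intron of Mest, an imprinted gene expressed from the paternal allele. No other hairpin of the 299 miRNAs matched to a RefSeq sequence lay within 50 kb of any of these. The rest of the 358 miRNAs could not be placed and were not checked. The members were therefore neither neighbours in the genome nor seed relatives.

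The libraries held between 1548581 and 11306605 reads on miRNAs, the caput libraries being the deepest. A level of 10 CPM thus stood for 15.5 to 113 reads. miR-10a and miR-10b together took 50.5 to 71.3% of the caput reads, 50.3 to 53.2% of the corpus reads and 33.2 to 34.5% of the cauda reads. The median difference of the miRNAs tested was 0.47 for corpus against caput, 0.18 for cauda against corpus and 0.81 for cauda against caput, against -0.10, 0.08 and 0.07 after scaling by the trimmed mean of M values (TMM). Differences of members are therefore also given relative to these medians.

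miR-137-3p, best known from neurons and their maturation, was close to absent from the proximal segments. Its levels in the caput libraries were 0.265, 0 and 0.237 CPM, from 3, 0 and 2 reads. In the corpus libraries they were 0.646, 0.392 and 0 CPM, from 4, 1 and 0 reads. The cauda libraries held 34.5, 37.5 and 18.3 CPM, from 69, 82 and 108 reads. The cauda libraries were all far above every other library, while caput and corpus overlapped.

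Because so few reads lay behind the proximal values of miR-137-3p, its fold change was taken from pooled reads: 5 of 28034406 caput reads, 5 of 10292290 corpus reads and 259 of 10082416 cauda reads. The cauda rate was 52.9 times the corpus rate, with a 95% exact Clopper-Pearson interval from 22.4 to 164, and 144 times the caput rate, with an interval from 60.9 to 447. The corpus rate was 2.72 times the caput rate, with an interval from 0.627 to 11.8. These intervals describe the counting error of pooled reads of a miRNA chosen for its rise; they leave out the spread between pools and are not a test.

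miR-139-5p, whose hairpin lies in Pde2a and which is often lowered in tumours, was higher at each successive segment. The caput libraries held 5.31, 3.50 and 7.81 CPM (60, 29 and 66 reads). The corpus libraries held 11.8, 12.1 and 20.7 CPM (73, 31 and 32 reads), and the cauda libraries 73.0, 34.8 and 81.1 CPM (146, 76 and 478 reads). No library of one segment overlapped with those of another, although the lowest corpus value, 11.8 CPM, was not far above the highest caput value.

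The mean level of miR-139-5p was 5.54 ± 2.16 CPM in caput, 14.9 ± 5.02 in corpus and 62.9 ± 24.7 in cauda epididymosomes (SD, n = 3 each). On the log2 scale the corpus mean lay 1.29 ± 0.47 (SE) above the caput mean, and the cauda mean a further 1.97 ± 0.47 above the corpus mean, so that 39.6% of the rise was reached in the corpus. Relative to the median of the miRNAs tested the differences were 0.82 and 1.79. Scaling by TMM gave 0.79 for the corpus, below the 2-fold limit used to call a step, and 1.86 for the cauda.

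miR-184-3p, an abundant miRNA of corneal and lens epithelium, was low in the caput and rose in the corpus. The caput libraries were close together at 3.98, 4.47 and 2.96 CPM (45, 37 and 25 reads). The corpus libraries held 58.5, 65.8 and 29.7 CPM (362, 168 and 46 reads), and the cauda libraries 66.5, 184 and 34.8 CPM (133, 403 and 205 reads). All corpus and all cauda libraries lay above all caput libraries, but corpus and cauda overlapped, and the cauda values were widely spread.

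The mean level of miR-184-3p went from 3.80 ± 0.772 CPM (caput) to 51.3 ± 19.1 (corpus) and 95.2 ± 78.9 (cauda; SD, n = 3 each). The log2 difference of corpus and caput was 3.38 ± 0.55 (SE), 10.4-fold, and made up 84.4% of the rise. That of cauda and corpus was 0.63 ± 0.55, and it was -0.01 without cauda library 2 and 1.17 without cauda library 3. The sign and size of this second difference thus turned on single libraries. Relative to the median of the miRNAs tested, the differences were 2.91 and 0.45.

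miR-190a-5p, from the Tln2 intron, had its highest mean in the corpus and not in the cauda. The caput libraries held 20.1, 2.54 and 13.1 CPM (227, 21 and 111 reads). The corpus libraries held 190, 96.0 and 119 CPM (1174, 245 and 184 reads), and the cauda libraries 93.9, 129 and 45.8 CPM (188, 281 and 270 reads). Every corpus and cauda library exceeded every caput library, and corpus and cauda overlapped.

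The mean level of miR-190a-5p came to 11.9 ± 8.83 CPM (caput), 135 ± 48.9 (corpus) and 89.5 ± 41.6 (cauda; SD, n = 3 each). The log2 difference of corpus and caput was 3.68 ± 0.60 (SE), 12.8-fold, which was 121% of the difference between cauda and caput. Cauda minus corpus was -0.65 ± 0.60, and ranged from -0.97 to -0.23 as single libraries were left out. The first difference ranged from 2.92 to 4.20 in the same way, the lowest value being that without caput library 2. Relative to the median of the miRNAs tested, the differences were 3.21 and -0.83. The level in the cauda lay below that in the corpus by about the size of its error.

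A ratio of 2 miRNAs within a library does not depend on how the library is scaled. The reads of miR-184-3p over those of miR-190a-5p were 0.198, 1.76 and 0.225 in caput libraries, 0.308, 0.686 and 0.250 in corpus libraries and 0.707, 1.43 and 0.759 in cauda libraries. The cauda ratios all exceeded the corpus ratios. Caput library 2, in which miR-190a-5p had only 21 reads, had the highest ratio of all 9.

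miR-335-3p, from the imprinted Mest locus, increased over both intervals, with an overlap in the first. The caput libraries held 9.91, 7.61 and 31.9 CPM (112, 63 and 270 reads). The corpus libraries held 62.0, 43.9 and 29.7 CPM (384, 112 and 46 reads), and the cauda libraries 96.4, 206 and 124 CPM (193, 451 and 730 reads). Caput library 3 was above corpus library 3, whereas all cauda libraries were above every corpus and caput library.

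The mean level of miR-335-3p went from 16.5 ± 13.4 CPM (caput) to 45.2 ± 16.2 (corpus) and 142 ± 57.3 (cauda; SD, n = 3 each). The log2 difference of corpus and caput was 1.60 ± 0.53 (SE) and that of cauda and corpus 1.62 ± 0.53, so 49.7% of the rise was reached in the corpus. Relative to the median of the miRNAs tested they were 1.14 and 1.44. The corpus difference was 1.22 without caput library 2 and 2.19 without caput library 3. Without caput library 3 or corpus library 3 the segments no longer overlapped.

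The share of a rise reached in the corpus depends on the scale. As a share of the difference in mean CPM, and not in log2, it was 16.2% for miR-139-5p, 22.8% for miR-335-3p, 52.0% for miR-184-3p and 158% for miR-190a-5p. The order of the members was the same on both scales, with miR-137-3p lowest at 0.597% of the CPM and 3.92% of the log2 difference.

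**Figure D1:**
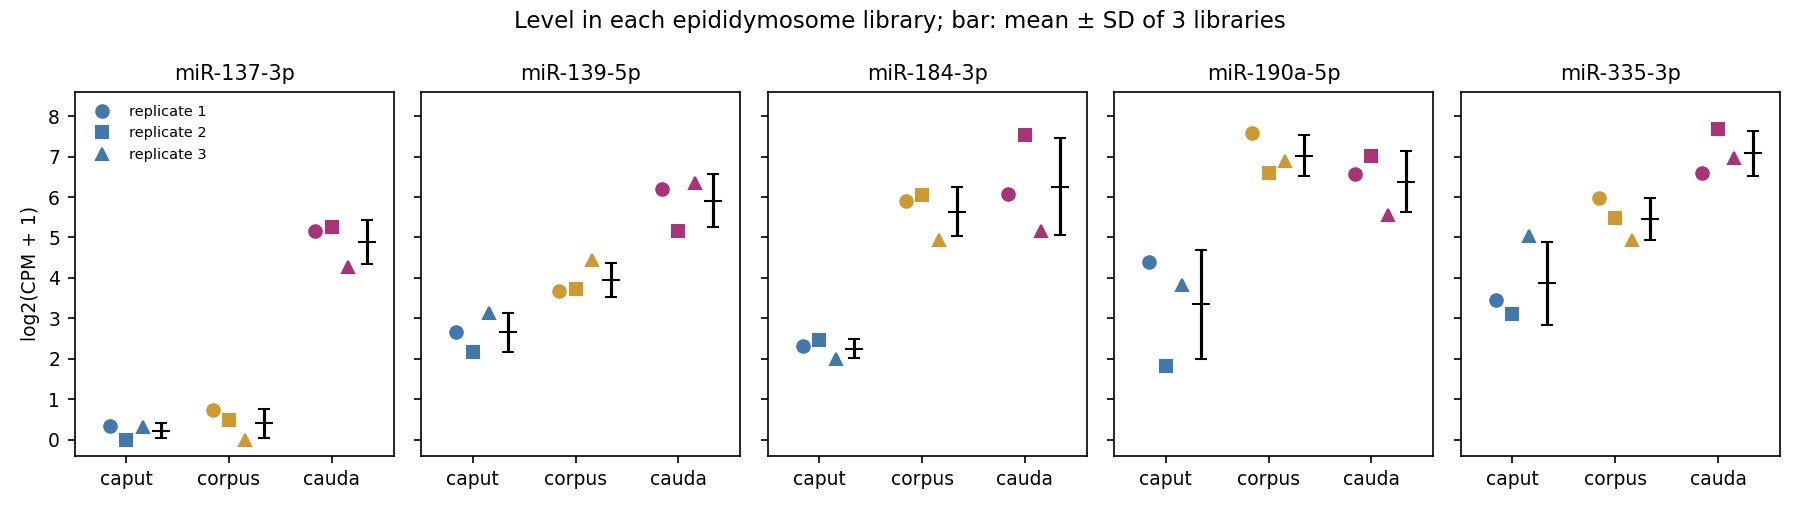
Level of each of the 5 miRNAs in each epididymosome library, as log2(CPM + 1) on a common vertical axis, with caput, corpus and cauda along the horizontal axis. Symbols mark the replicate number and bars the mean ± SD of 3 libraries; miR-137-3p is near 0 until the cauda, miR-184-3p and miR-190a-5p are already high in the corpus, and miR-139-5p and miR-335-3p climb over both intervals.

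To separate the members, a step was counted where the mean difference was at least 1 on the log2 scale and the 3 libraries of the distal segment all lay above the 3 of the proximal one. All 5 members met this between caput and cauda, as did 132 of the 349 miRNAs tested (37.8%), and since the members were selected on that rise nothing is read from it. The corpus step was met by 3 members, miR-139-5p, miR-184-3p and miR-190a-5p, beside 22.4% of all 321 miRNAs tested. The cauda step was met by 3 members, miR-137-3p, miR-139-5p and miR-335-3p, beside 19.3% of all 342.

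These shares are a background to the counts of members and not a test of them. miR-139-5p was the 1 member with both steps. Among all 358 miRNAs, 67 (18.7%) had only the corpus step, 61 (17.0%) only the cauda step, 5 (1.40%) both and 225 (62.8%) neither. The stepwise course of miR-139-5p was thus the rarest of these patterns by count, and it depended on the scaling, as given above.

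By size, the members held different places among all miRNAs. Of the 321 differences between corpus and caput, miR-190a-5p had the 4th largest, miR-184-3p the 5th, miR-335-3p the 49th and miR-139-5p the 61st; miR-137-3p was below 10 CPM in both segments and was not ranked. Of the 342 between cauda and corpus, miR-137-3p had the 3rd largest, miR-139-5p the 23rd and miR-335-3p the 38th, while miR-184-3p was 113th and miR-190a-5p 284th. The members with the largest corpus difference were not those with the largest cauda difference. Both differences share the corpus mean and add up to the rise for which the members were chosen, so nothing is read from that contrast.

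**Figure D2:**
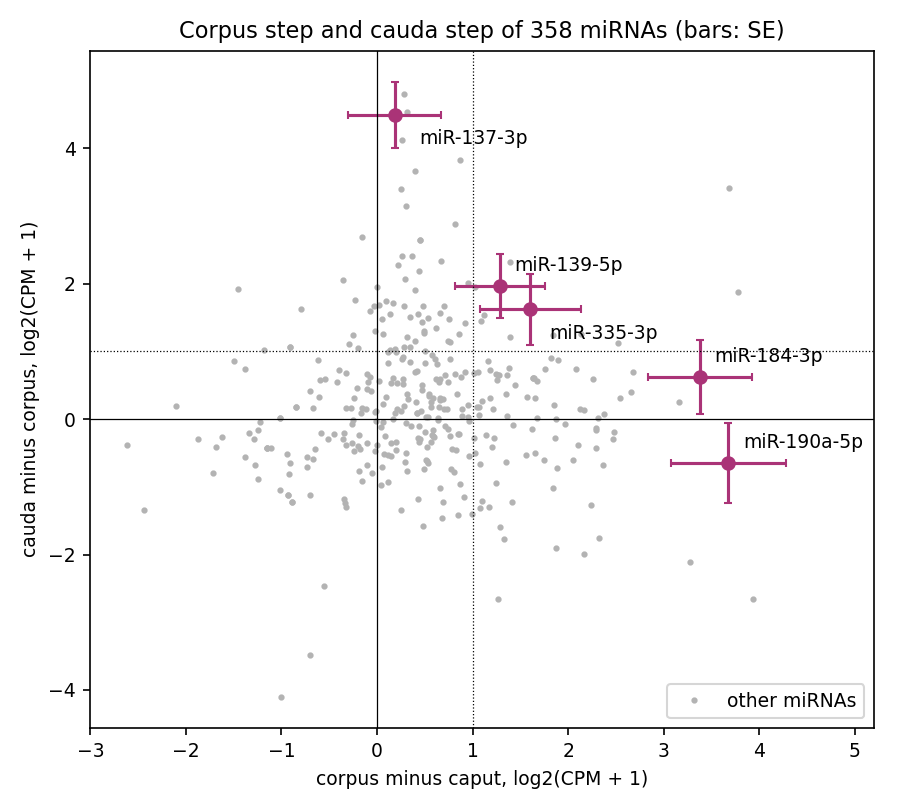
Difference between corpus and caput (horizontal) against that between cauda and corpus (vertical) on the log2(CPM + 1) scale, for 358 miRNAs. Bars on the 5 members are standard errors and dotted lines mark the 2-fold limit; miR-137-3p lies at 0.18 and 4.50, miR-190a-5p at 3.68 and -0.65, and the other 3 members between these.

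The members with a large first step kept it under other ways of scaling the libraries. Corpus minus caput was 2.86 for miR-184-3p and 3.18 for miR-190a-5p after TMM, and both passed the corpus step under every alternative run. The corresponding values were 1.07 for miR-335-3p and 0.13 for miR-137-3p. Cauda minus corpus after TMM was 4.28 for miR-137-3p, 1.52 for miR-335-3p, 0.53 for miR-184-3p and -0.74 for miR-190a-5p, in the same order as without it.

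**Figure D3:**
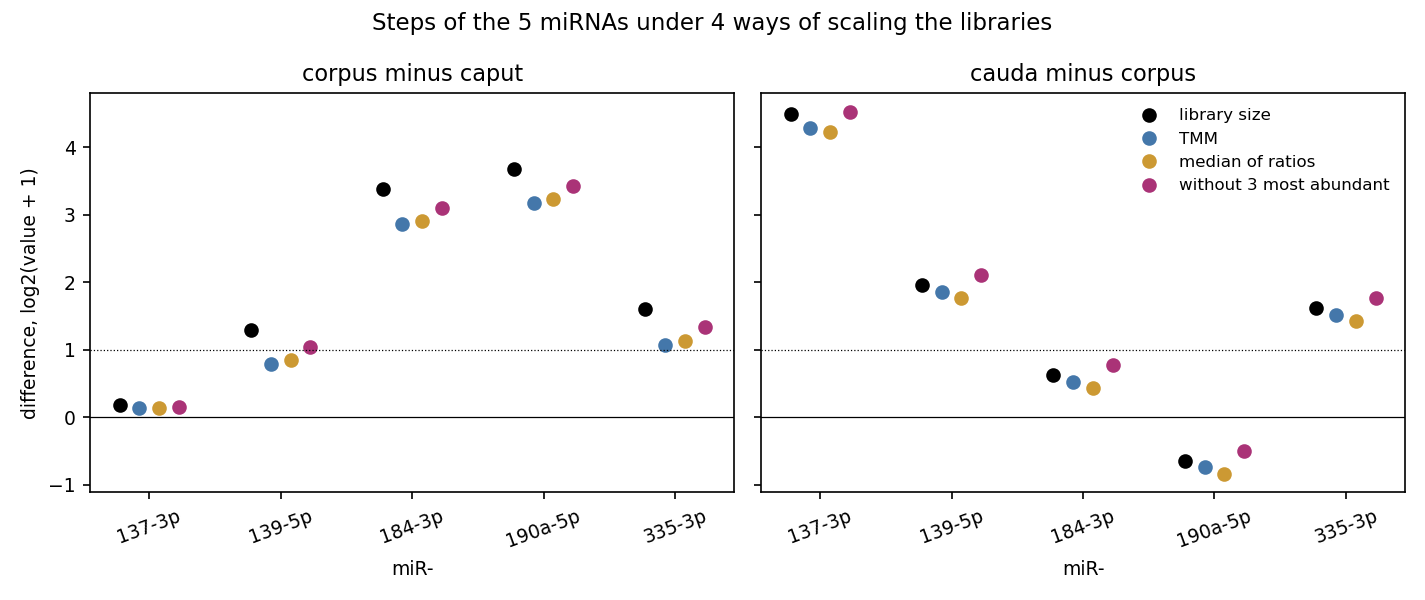
Differences of the 5 miRNAs between corpus and caput (left) and between cauda and corpus (right), on the log2(value + 1) scale, under 4 scalings of the libraries. The dotted line is the 2-fold limit; miR-139-5p in the left panel goes from 1.29 by library size to 0.79 by TMM, and no member changes sign in either panel.

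The pools did not rank the members alike. Cauda library 2 had the highest cauda level of 4 of the 5 members, miR-139-5p being the exception, and cauda library 3 the lowest of miR-137-3p, miR-184-3p and miR-190a-5p. In the caput, library 2 was lowest for 4 members. That library had the lowest TMM factor of all, 0.478, and 71.3% of its reads were miR-10a and miR-10b, so low CPM there were not particular to the members. The coefficient of variation between cauda libraries was 82.8% for miR-184-3p, against 6.28% from counting error alone and a median of 25.6% over the 322 miRNAs at 10 CPM or more in the cauda, of which 14 had a higher one. In the caput it was 74.1% for miR-190a-5p and 81.5% for miR-335-3p, against a median of 45.6%.

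For miR-335 both arms of the hairpin were measured, and its partner strand was not used in choosing the members. The hairpin is shown, from RefSeq, with the 5p arm (bases 16 to 38) and the 3p arm (bases 56 to 77) in capitals, to place the 2 measured strands within their common precursor.
Mir335 hairpin: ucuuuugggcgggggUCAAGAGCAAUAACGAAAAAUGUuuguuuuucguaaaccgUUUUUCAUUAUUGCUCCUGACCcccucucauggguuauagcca
miR-335-5p, with its seed in capitals: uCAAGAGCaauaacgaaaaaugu

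miR-335-5p held 19.5, 7.13 and 27.2 CPM in the caput libraries. It held 93.5, 52.9 and 23.2 CPM in the corpus libraries and 28.0, 65.9 and 124 CPM in the cauda libraries. Corpus and cauda overlapped widely, and corpus library 3 was below caput library 3. Its means were 18.0 ± 10.1, 56.6 ± 35.3 and 72.5 ± 48.2 CPM (SD, n = 3 each). Whether its course along the duct differed from that of the 3p arm was not tested.

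Tested with limma and Benjamini-Hochberg adjustment over all miRNAs, miR-335-5p exceeded its caput level in the cauda by 1.89 ± 0.62 (SE) on the log2 scale, adjusted p = 0.0178. Of the 349 miRNAs tested in that comparison, 38.7% were called higher and 10.3% lower. The call did not hold with TMM scaling (1.26, limma adjusted p = 0.0733), nor without caput library 2 (1.37, limma adjusted p = 0.109). It was likewise lost with median-of-ratios scaling (1.21, limma adjusted p = 0.0803), without cauda library 2 (1.84, limma adjusted p = 0.0536) and without cauda library 3 (1.39, limma adjusted p = 0.0911).

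For corpus against caput, in which 19.0% of miRNAs were called higher, miR-335-5p differed by 1.57 and did not pass (limma, Benjamini-Hochberg adjusted p = 0.0793). It passed without corpus library 3 (2.09, limma adjusted p = 0.0338) and without caput library 3 (1.95, limma adjusted p = 0.0438). For cauda against corpus it differed by 0.32 (limma adjusted p = 0.772).

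The ratio of 3p to 5p reads of miR-335 was 0.507, 1.07 and 1.17 in caput libraries and 0.663, 0.830 and 1.28 in corpus libraries. In cauda libraries it was 3.45, 3.13 and 1.00. Cauda libraries 1 and 2 thus had more than 3 times as many reads of the 3p as of the 5p arm, a ratio reached in no other library, and cauda library 3 had nearly equal numbers. The cauda did not stand apart as a group, and as the 3p arm had been chosen for its rise the ratio was not tested. The partner arms of the other 4 members were not among the 358 miRNAs of the series.

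**Figure D4:**
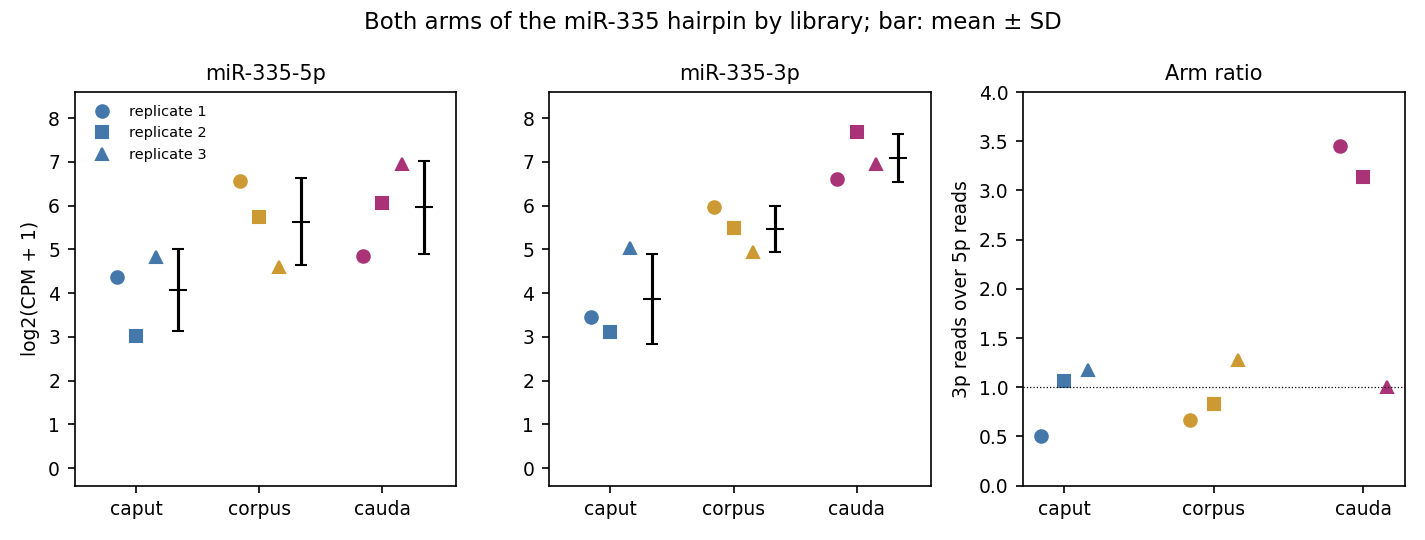
Level of miR-335-5p (left) and miR-335-3p (middle) in each library as log2(CPM + 1), with the mean ± SD of 3 libraries, and the ratio of 3p to 5p reads in each library (right, linear axis, dotted line at equal reads). The ratio is above 3 in cauda libraries 1 and 2 and close to 1 in cauda library 3.

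The miRNAs whose levels most resembled those of each member were found by Pearson's r of log2(CPM + 1) over the 9 libraries. These values describe courses along the duct: the points share libraries and fall into 3 segments, so no p is given. For miR-137-3p they were miR-133a-5p (r = 0.995), miR-208b-3p (0.985) and miR-133b-3p (0.984), miRNAs of skeletal and heart muscle. Their cauda means were 13.1, 31.2 and 277 CPM, while their caput means were 0.0689, 0.120 and 7.44 CPM and their corpus means 0.292, 0.400 and 8.19 CPM. miR-137-3p, miR-133a-5p and miR-208b-3p were close to absent from caput and corpus. Their r therefore rests mostly on the contrast of the cauda with the other segments, and would be high for any miRNA confined to the cauda.

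For miR-139-5p the nearest were miR-471-5p (0.983), of an X-linked testis cluster, miR-34b-3p (0.970), of a family abundant in ciliated and germ cells, and miR-28a-3p (0.969). For miR-184-3p they were miR-196a-5p (0.924), of the Hox clusters, miR-708-5p (0.920) and miR-871-3p (0.899). miR-190a-5p was most like miR-107-3p (0.962) and its relative miR-103-3p (0.949), which have means of 748 and 1558 CPM in the corpus and 506 and 1299 CPM in the cauda, and then miR-101c (0.939). For miR-335-3p they were miR-337-3p (0.959) and miR-376b-3p (0.955), both of the imprinted Dlk1-Dio3 locus, and miR-708-3p (0.954).

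Among the members themselves, r was 0.855 for miR-137-3p with miR-139-5p, 0.853 for miR-184-3p with miR-190a-5p, 0.852 for miR-139-5p with miR-335-3p, 0.834 for miR-184-3p with miR-335-3p and 0.822 for miR-137-3p with miR-335-3p. The other 5 pairs lay between 0.384, for miR-137-3p with miR-190a-5p, and 0.718, for miR-190a-5p with miR-335-3p.

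Since miRNAs of several cell types could reach the luminal fluid, marker lists were examined beside the members. In vesicles pooled from a whole segment, more vesicles from a cell type and more of a miRNA in each vesicle cannot be told apart. The striated muscle list, miRNAs of skeletal and heart muscle, had values for 5 of its 8 members, and all 5 were called higher in cauda than caput, also with TMM (limma with Benjamini-Hochberg adjustment). Every one of the 358 miRNAs averaged 10 CPM or more in at least 1 segment. miR-1a-3p, miR-133a-5p, miR-133b-3p and miR-208b-3p did so only in the cauda. The share called and the size of the rise were thus in part set by that limit, and nothing is read from the count. Its summed level was 55.5 to 197 CPM (caput), 121 to 167 (corpus) and 1412 to 4166 (cauda). miR-133b-3p rose by 5.08 and miR-208b-3p by 4.84 on the log2 scale. Within the cauda the sum was highest in library 2 and lowest in library 3, as were miR-137-3p, miR-184-3p and miR-190a-5p. miR-139-5p and miR-335-3p did not share that order. The part of muscle in the level of miR-137-3p was not tested.

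The counts of the next lists by library size stand beside the 38.7% of all miRNAs tested that were called higher in the cauda. With TMM 84 of all miRNAs were called higher, against 135 by library size. The smooth muscle list (miR-143 and miR-145a) was higher for 4 of 4 by library size and 2 of 4 with TMM, with sums of 50115 to 88995 CPM (caput), 88423 to 121412 (corpus) and 291676 to 354786 (cauda). The red blood cell list, led by miR-451a and miR-486a, had values for 4 of its 5 members and was higher for all 4, or for 2 with TMM, and its sum was 122 to 468 CPM (caput), 234 to 659 (corpus) and 1606 to 2225 (cauda). The leukocyte list had values for 5 of its 6 members and was higher for 3 under both scalings, with 231 to 530, 515 to 1149 and 392 to 1601 CPM. The smooth muscle and red blood cell sums were higher in every cauda library than in any corpus library. So were miR-137-3p, miR-139-5p and miR-335-3p, but the cauda step that they met requires this, so nothing is read from the match. The leukocyte sum was not higher in every cauda library: cauda libraries 1 and 2, at 392 and 468 CPM, lay below all corpus libraries. Most of that sum was miR-142a-5p, with means of 632 CPM in corpus and 539 in cauda libraries. The other list members measured, miR-142a-3p, miR-150-5p, miR-155-5p and miR-223-3p, had higher means in the cauda than in the corpus. Most of the increase in the sum of the red blood cell list lay in miR-486a-5p, with means of 303 CPM in corpus and 1749 in cauda libraries. Its list partner miR-451a stayed level, at 197 and 196 CPM. From corpus to cauda, miR-144-3p went from 8.29 to 13.1 CPM and miR-486a-3p from 1.09 to 13.6 CPM. Nearly all of the smooth muscle sum was miR-143-3p, at a cauda mean of 315271 CPM. The part of these cells in the levels of the members was not tested.

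The neuronal list, examined because miR-137 is known from neurons, had values for 6 of its 20 members, of which 5 were tested. miR-128-3p rose by 1.68 on the log2 scale, whereas miR-9-5p fell by 3.00 and miR-138-5p fell by 2.51; the same counts held with TMM. The summed level of the list was 218 to 535 CPM (caput), 206 to 257 (corpus) and 203 to 232 (cauda). miR-9-5p alone averaged 249 CPM in caput and 31.9 CPM in cauda libraries, and so weighed on the caput sum. The other 2 tested members did not pass, miR-132-3p at 0.93 (limma adjusted p = 0.0769) and miR-218-5p at 1.15 (limma adjusted p = 0.0657), and the part of neurons in the level of miR-137-3p was not tested.

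The epithelial list, led by the miR-200 family and miR-141-3p, was measured for all 8 of its members, with sums of 23196 to 35351 CPM (caput), 75269 to 86840 (corpus) and 46242 to 62878 (cauda). Its sum was highest in the corpus, as was the mean of miR-190a-5p. Most of that sum was miR-141-3p, with means of 17882, 65694 and 40435 CPM in caput, corpus and cauda. miR-200a-3p, miR-200c-3p and miR-429-3p also had their highest mean in the corpus. miR-203-3p and miR-205-5p were nearly level from caput to corpus, and miR-200b-3p and miR-375-3p were lower in the corpus than in the caput. Between caput and cauda 1 member was called higher (miR-141-3p, by 1.16) and 1 lower (miR-375-3p fell by 4.19), and with TMM 0 were higher and 3 lower. The mesenchymal list (miR-199 and miR-214) was higher in the cauda for 2 of 5, a share close to the 38.7% of all miRNAs tested, with sums of 934 to 2852, 3180 to 4607 and 4284 to 6602 CPM. The median log2 difference of cauda and caput was 4.39 for striated muscle, 2.63 for red blood cells, 2.11 for smooth muscle, 1.82 for leukocytes, 0.93 for neurons, 0.74 for mesenchyme and 0.09 for epithelium, against 0.81 for all miRNAs tested.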

How the data were processed

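Small RNA of epididymosomes was sequenced as single-end reads in 9 libraries, and the segment and replicate of each were taken from the sample labels. Per the study's methods, the authors removed contaminant reads, counted reads on known miRNAs with miRDeep2 and deposited CPM values, normalised to library size. CASAVA 1.8.2, Bowtie 1.1.1 and limma are named in the submitters' processing notes. The genome build is not given in the sources used here. CPM were whole multiples of 1 read in every library (within 0.05 read), from which reads were recovered.

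All 358 miRNAs were fitted with limma 3.58.1 in R 4.3.3 (lmFit, eBayes with a trend) on log2(CPM + 1), two-sided, with no factor but the segment. Benjamini-Hochberg adjustment covered miRNAs that averaged 10 CPM or more in 1 of the segments compared; calls needed an adjusted p under 0.05 and a fold of at least 2. No p is given for the 5 miRNAs, which, like the lists, were chosen with earlier results of these data known. Named miRNAs were the 5, their partner arms, seed relatives and neighbours within 50 kb, the 3 nearest by correlation, and called list members (up to 4). Outside that rule, the other list members named were chosen after their values were seen. Alternatives were other scalings, pseudocounts, filters, limma-voom, a replicate block, fits of the compared segments alone and libraries left out. Python 3.11.15, numpy 2.4.6, pandas 2.3.3 and matplotlib 3.10.9 were used.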

Additional observations from a re-analysis of the deposited data

How the results depend on the processing

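The corpus step was met by 2 to 4 members under the alternatives: miR-139-5p lost it with TMM (0.79), median-of-ratios scaling (0.84) and a pseudocount of 10 (0.67), and miR-335-3p gained it with median-of-ratios scaling, without the 3 most abundant miRNAs in the library size, and without caput library 3 or corpus library 3. The cauda step was met by miR-137-3p, miR-139-5p and miR-335-3p under every alternative run, and also by miR-184-3p without cauda library 3. All 135 member differences with a library left out, and 65 of 75 others, moved by less than the replicate spread; 1 changed sign, cauda minus corpus of miR-184-3p, from 0.63 to -0.01 without cauda library 2. Among the other 10, cauda minus caput of miR-137-3p was 6.96 with a pseudocount of 0.1 and 1.94 with 10, that of miR-139-5p 2.65 with TMM, 2.61 with median-of-ratios scaling and 2.17 with a pseudocount of 10, and that of miR-184-3p 2.66 with a pseudocount of 10. limma called 72 miRNAs for corpus against caput (61 higher, 11 lower), 65 for cauda against corpus (48 and 17) and 171 for cauda against caput (135 and 36); with TMM the splits were 42 and 49, 56 and 34, and 84 and 73. A filter of 50 CPM, which tests fewer miRNAs, left 95 calls for cauda against caput. With libraries left out, calls ranged from 46 (without corpus library 1) to 102 (without caput library 3), from 32 (without corpus library 2) to 83 (without caput library 3) and from 132 to 202. The replicate block gave 83, 73 and 180 calls; deviations of same-numbered libraries correlated from -0.211 to 0.411, not all above 0.1, and not every library correlated best with its own number, so the numbers were not taken to pair the libraries. edgeR was planned on the recovered reads but was not run; limma-voom on these reads called 71, 46 and 172 miRNAs. Values of a few reads, as for miR-137-3p in the caput and corpus, limit what could be seen there.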
